A study of Mus musculus with 6 samples.

Results

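The mitochondrial ribosomal protein genes were taken as every gene in the count table whose symbol is Mrpl or Mrps followed by a number and at most 1 letter, together with Dap3, Ptcd3 and Chchd1, which encode small subunit proteins under other names. This gave 81 of the 22105 named genes in the table. Of these, 51 encode proteins of the large subunit and 29 proteins of the small subunit. The remaining gene, Mrps36, carries a ribosomal name but encodes a component of the oxoglutarate dehydrogenase complex, and it is kept apart below. The cells were 4T1, a mouse mammary carcinoma line, cultured for 24 h in the presence of vehicle (DMSO) or of the histone demethylase KDM3B inhibitor P3FI-90 at 10 µM. Each group had 3 mRNA libraries, and the comparison asks how transcript levels differed between inhibitor and vehicle. The design holds 1 cell line, 1 dose and 1 time. Nothing in the labels says whether the 3 libraries of a group came from separate cultures, so the p-values measure the spread between these libraries, which may be technical.

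Mitochondrial ribosomes stand in the matrix, mostly bound to the inner membrane, and translate the few mRNAs of the mitochondrial genome, all of which encode subunits of the respiratory chain and ATP synthase. Their ribosomal RNAs are transcribed inside the organelle, whereas every one of their proteins is encoded in the nucleus, made on cytosolic ribosomes and imported. Some of these proteins descend from bacterial ribosomal proteins and others were added in the mitochondrial lineage. The supply of the proteins therefore depends on nuclear transcription and on cytosolic translation, and assembly needs many of them together.

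Counts on named genes summed to between 31327094 and 37395732 per library. Normalized counts below are counts scaled with edgeR's TMM method to the mean effective library size, log2 fold changes compare P3FI-90 with DMSO, and a gene was called where the quasi-likelihood test of edgeR gave it a p under 0.05 after Benjamini-Hochberg adjustment over all 12288 genes tested. A single gene with 3 values on each side cannot reach a p under 0.1 in an exact permutation test (two-sided), and the adjusted p-values owe their size to a spread estimated over all genes at once. Kdm3b, which encodes the target of the inhibitor, had a log2 fold change of 0.13 (adjusted p = 0.0169), and this turned to -0.08 once the fold changes were corrected for transcript length and GC content. All 6 epithelial markers checked (Epcam, Cdh1, Krt7, Krt8, Krt14 and Krt18) were present in every library, with at least 1003 normalized counts each, and all 6 fell after P3FI-90 (log2 fold changes of -2.33 to -0.32). Their part in the results below was not tested. Of 7 markers of leukocytes, endothelium and fibroblasts, 2 were at 0 in every library, Adgre1 among them, and the other 5 reached at most 26.4 normalized counts; the summed level of the 7 was 0 to 34.4 in DMSO and 27.0 to 43.0 in P3FI-90. In bulk RNA, fewer cells and less RNA per cell cannot be told apart, and every level below is relative to the rest of the library.

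Most mitochondrial ribosomal protein transcripts were lower after P3FI-90, while a smaller set was higher. Of the 81 members, 49 (60.5%) fell, 12 (14.8%) rose and 20 passed neither way. Over all genes tested, 39.4% were called lower, 39.9% higher and 79.3% either way, so the members differed from this background in direction more than in the share called (75.3%). The median log2 fold change of the members was -0.41, against 0.013 over all genes tested. Changes were moderate in size. On the TMM scale the range ran from -1.31 for Mrpl36 to 0.93 for Mrpl49, with 10 members at or below -1 and 0 at or above 1. All 81 members passed the filter on low counts, with 281 to 7476 raw counts per library, so none entered only through the group in which it was high. The libraries of the groups did not overlap for 63 members, 49 of them lower and 14 higher in P3FI-90, where 40.2% of all genes tested were lower and 41% higher without overlap.

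**Figure D1:**
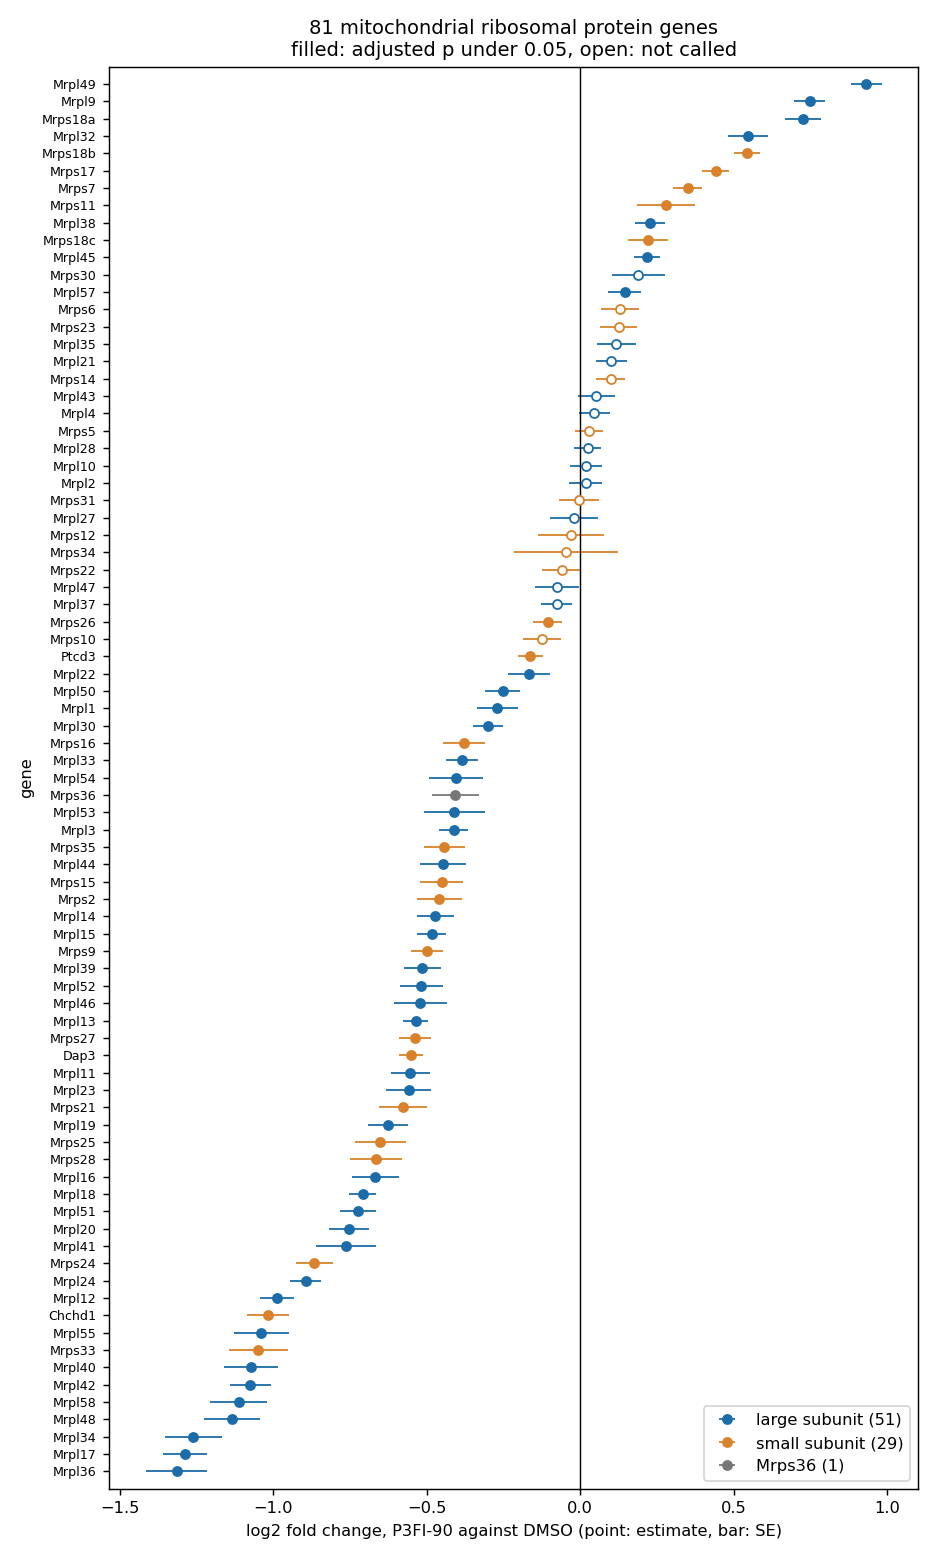
Log2 fold change of each of the 81 members (x axis, P3FI-90 against DMSO, bars are SE), sorted and coloured by subunit, with 3 libraries per group. Filled points mark the 49 lower and 12 higher members called at an adjusted p under 0.05, and open points the 20 others, which lie between -0.12 and 0.19.

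The balance between falls and rises depended on the scaling of the libraries. TMM factors were 0.927 to 0.930 for DMSO and 1.08 for P3FI-90, and scaling by total counts alone raised the log2 fold changes of all genes by a median of 0.21. On that scale 29 members were higher and 41 lower, with a median of -0.19, beside 50.3% of all genes higher and 29.6% lower. After correction for length and GC content, 23 members were higher and 41 lower, with a median of -0.15, beside 37.5% and 40.2% of all genes. Mrpl49 was above 1 under total counts (1.15) and after the correction (1.02), and Mrps18a after the correction (1.11). DESeq2 size factors gave 16 higher and 47 lower (40.5% and 38.8% of all genes), and upper quartile scaling 11 and 51 (38.3% and 41.3%). The median of the members stayed below that of all genes under each of these scalings. Read as a share of all counts, the members together took 0.417% to 0.427% in DMSO and 0.414% to 0.426% in P3FI-90, so the sums overlapped. On the TMM scale their summed normalized counts were 157187 to 161667 in DMSO and 134683 to 138877 in P3FI-90, a mean of 86.3% of the DMSO level. Under all 4 scalings of the libraries (TMM, size factors of DESeq2, total counts and upper quartile), 41 members were lower and 11 higher. Under all 17 settings, which include the correction for length and GC content, 35 were lower and 10 higher. The same counts over all genes were not made.

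**Figure D2:**
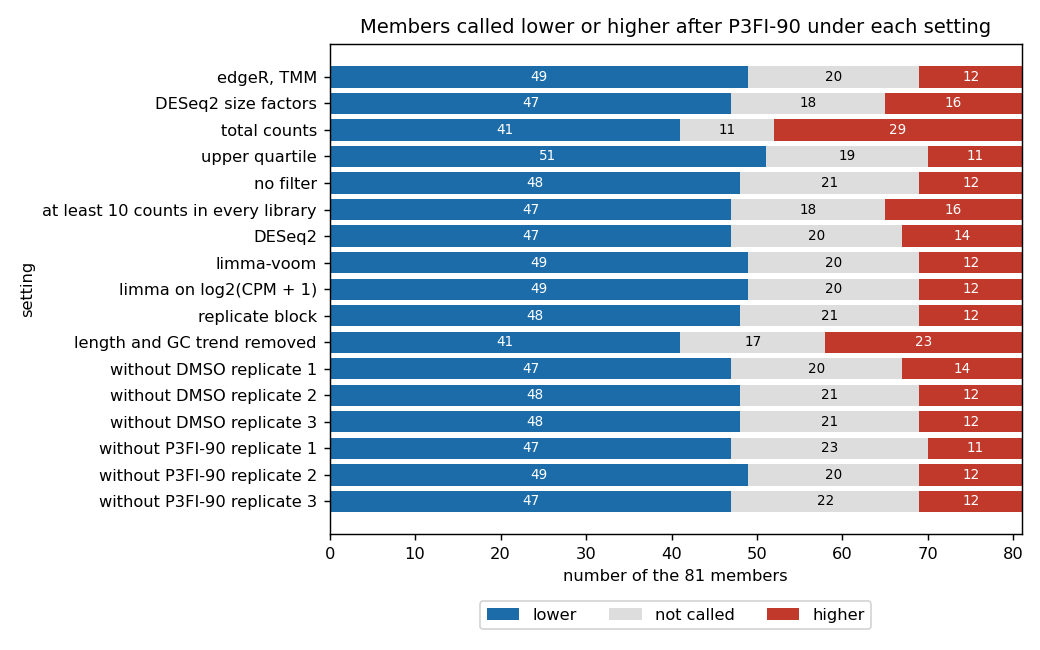
Number of the 81 members called lower, not called or called higher after P3FI-90 (x axis, genes) under each of 17 settings (y axis). Lower calls range from 41 to 51 and outnumber the 11 to 29 higher calls under every setting, with the most higher calls under total counts.

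The 300 bases around the starts of the 3 members that rose most and the 3 that fell most are shown so that the promoters at both ends of the range can be read beside their values. They come from RefSeq on GRCm38.p6, run 5′ to 3′ on the strand of the gene, and cover 250 bases before and 50 after the start. Capitals mark motifs searched on both strands, which were GCGCAN followed by GCGC for NRF1, CCGGAAG for ETS factors such as GABPA, AANATGG followed by CGGC for YY1, and CACGTG for the E-box of MYC and MAX. The windows are chr19:6057706-6058005 (minus strand) for Mrpl49, chr3:94443086-94443385 (plus strand) for Mrpl9, chr17:46110754-46111053 (plus strand) for Mrps18a, chr13:73330759-73331058 (plus strand) for Mrpl36, chr7:105811038-105811337 (minus strand) for Mrpl17 and chr8:71464676-71464975 (plus strand) for Mrpl34.
Mrpl49: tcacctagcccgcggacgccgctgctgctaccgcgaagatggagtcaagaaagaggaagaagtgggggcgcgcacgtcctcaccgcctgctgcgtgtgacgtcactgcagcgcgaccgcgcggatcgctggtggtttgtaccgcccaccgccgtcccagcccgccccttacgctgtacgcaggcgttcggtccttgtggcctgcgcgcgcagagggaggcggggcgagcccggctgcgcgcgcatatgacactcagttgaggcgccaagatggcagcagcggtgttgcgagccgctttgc
Mrpl9: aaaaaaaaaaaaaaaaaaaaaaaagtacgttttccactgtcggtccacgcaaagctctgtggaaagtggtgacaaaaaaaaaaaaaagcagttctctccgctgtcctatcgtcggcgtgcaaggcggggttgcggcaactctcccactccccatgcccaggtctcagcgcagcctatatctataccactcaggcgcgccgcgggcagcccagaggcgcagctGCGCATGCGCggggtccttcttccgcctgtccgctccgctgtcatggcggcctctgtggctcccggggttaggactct
Mrps18a: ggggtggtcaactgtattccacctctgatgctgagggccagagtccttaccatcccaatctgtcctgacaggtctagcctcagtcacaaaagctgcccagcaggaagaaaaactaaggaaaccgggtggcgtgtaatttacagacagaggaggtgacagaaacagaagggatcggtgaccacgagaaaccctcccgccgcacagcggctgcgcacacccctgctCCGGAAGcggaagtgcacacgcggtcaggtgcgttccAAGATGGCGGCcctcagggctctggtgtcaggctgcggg
Mrpl36: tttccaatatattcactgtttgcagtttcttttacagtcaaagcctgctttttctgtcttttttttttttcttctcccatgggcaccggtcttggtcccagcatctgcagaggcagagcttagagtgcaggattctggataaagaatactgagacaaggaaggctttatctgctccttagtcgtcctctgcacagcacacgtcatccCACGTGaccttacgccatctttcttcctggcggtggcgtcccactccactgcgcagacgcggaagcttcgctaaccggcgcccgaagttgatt
Mrpl17: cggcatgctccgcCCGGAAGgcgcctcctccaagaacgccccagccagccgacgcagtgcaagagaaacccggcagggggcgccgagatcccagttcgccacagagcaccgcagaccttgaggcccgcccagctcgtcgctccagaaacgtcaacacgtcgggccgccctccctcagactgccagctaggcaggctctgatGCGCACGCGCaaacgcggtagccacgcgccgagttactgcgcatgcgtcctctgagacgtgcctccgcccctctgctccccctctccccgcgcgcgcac
Mrpl34: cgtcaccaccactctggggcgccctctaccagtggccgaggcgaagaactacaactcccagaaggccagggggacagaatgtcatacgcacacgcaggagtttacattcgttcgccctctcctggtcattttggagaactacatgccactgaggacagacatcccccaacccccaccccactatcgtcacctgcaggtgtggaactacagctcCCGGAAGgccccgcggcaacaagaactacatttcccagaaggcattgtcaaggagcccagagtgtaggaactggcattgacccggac
Mrpl9 holds an NRF1 motif, Mrps18a an ETS and a YY1 motif, Mrpl36 an E-box, Mrpl17 an NRF1 and an ETS motif, Mrpl34 an ETS motif, and the window of Mrpl49 holds none of the 4. Among these 6 windows the NRF1 and ETS motifs occur beside members of both directions, the YY1 motif beside a member that rose and the E-box beside a member that fell.

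Mrpl36, a short zinc-binding protein of the large subunit with a bacterial counterpart, fell most. Its normalized counts were 1292, 1026 and 1179.8 in the DMSO libraries and 531, 449 and 428 in the P3FI-90 libraries (log2 fold change -1.31, SE 0.1, adjusted p = 2.16e-08). Every P3FI-90 library lay below every DMSO library. Mrpl17, whose bacterial counterpart lies at the surface of the large subunit, had 1916, 1826 and 1801 in the DMSO libraries and 691, 737 and 844 in the P3FI-90 libraries (log2 fold change -1.29, SE 0.072, adjusted p = 7.46e-10). Mrpl34, another large subunit protein of bacterial type, had 1351, 1204 and 1327 in the DMSO libraries and 547, 611 and 461 in the P3FI-90 libraries (log2 fold change -1.26, SE 0.093, adjusted p = 1.58e-08). Neither gene showed any overlap between the groups. Mrpl48 and Mrpl40 belong to the central protuberance, the crown of the large subunit that contacts the small subunit. Mrpl48 had 721, 712 and 804 in the DMSO libraries and 346, 352 and 320.3 in the P3FI-90 libraries (log2 fold change -1.14, SE 0.091, adjusted p = 3.69e-08). Mrpl40 had 1928, 1905 and 1872 in the DMSO libraries and 943, 1019.6 and 745 in the P3FI-90 libraries (log2 fold change -1.07, SE 0.088, adjusted p = 4.95e-08). In both, the highest P3FI-90 library was far under the lowest DMSO library.

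Mrpl58 encodes a peptidyl-tRNA hydrolase that is built into the large subunit and is known for releasing stalled peptides. It had 894, 969.5 and 976 in the DMSO libraries and 451, 481 and 379 in the P3FI-90 libraries (log2 fold change -1.11, SE 0.093, adjusted p = 6.03e-08). Mrpl42, a protein added in the mitochondrial lineage, had 3252, 2927 and 2753 in the DMSO libraries and 1402, 1335 and 1504 in the P3FI-90 libraries (log2 fold change -1.08, SE 0.067, adjusted p = 2.26e-09), and 18.8% of the 50-base windows of its transcripts also occur in another gene, the pseudogene Gm6419, so its count is less certain. Mrps33 was the small subunit gene that fell most. Its normalized counts were 569, 593 and 577 in the DMSO libraries and 270.4, 294 and 275 in the P3FI-90 libraries (log2 fold change -1.05, SE 0.096, adjusted p = 1.59e-07), with 21.0% of its windows shared with Gm5776. Mrpl55 (log2 fold change -1.04) and Chchd1 (-1.02), a small subunit protein with a twin-cysteine fold, completed the 10 members at or below -1. Chchd1 had 1954, 1869 and 1874 in the DMSO libraries and 970.3, 838 and 1010.0 in the P3FI-90 libraries. These 10 genes were called lower under all 17 settings, but the size of the falls depended on the setting. Under total counts only Mrpl36 (-1.10), Mrpl17 (-1.07) and Mrpl34 (-1.05) were at or below -1. After correction for length and GC content only Mrpl17 (-1.69), Mrpl48 (-1.30), Mrpl58 (-1.07) and Mrpl36 (-1.03) were. The others then ran from -0.91 for Mrps33 to -0.61 for Chchd1, with Mrpl34 at -0.69.

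**Figure D3:**
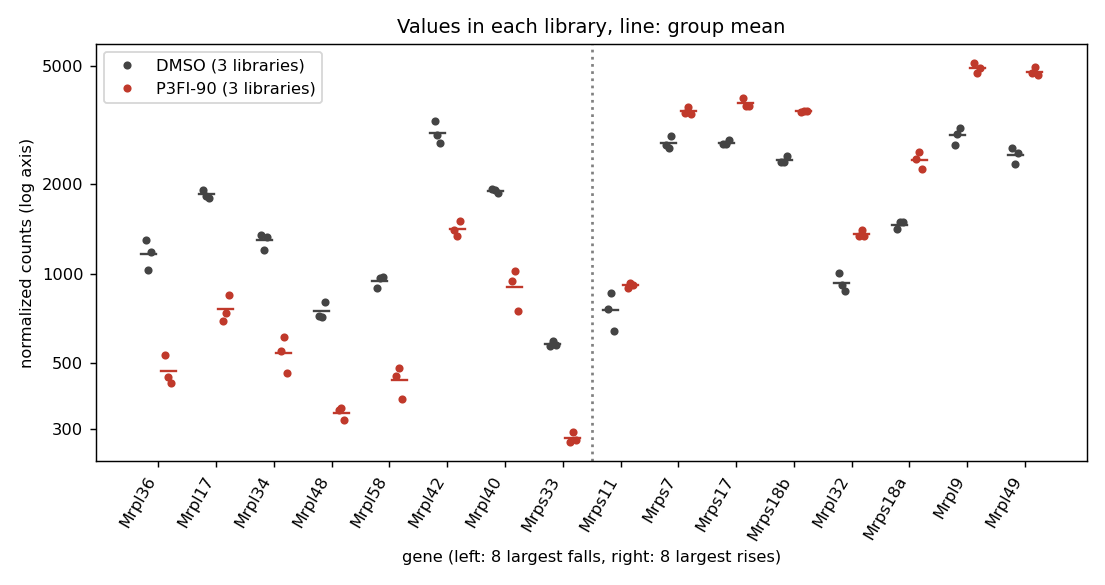
Normalized counts (y axis, log scale) of the 8 members that fell most (left) and the 8 that rose most (right), with 3 DMSO and 3 P3FI-90 libraries as points and lines at the group means. The groups do not overlap for any of the 16 genes, and the narrowest gap is that of Mrps11, between 861 in DMSO and 895 in P3FI-90.

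Among the members that rose, Mrpl49, a large subunit protein of the mitochondrial lineage, stood at the top. It had 2635, 2330.4 and 2549 in the DMSO libraries and 4716, 4966 and 4659 in the P3FI-90 libraries (log2 fold change 0.93, SE 0.05, adjusted p = 4.7e-10). Mrpl9, the counterpart of a bacterial protein at the base of the flexible stalk that guides tRNA exit, had 2714, 2958 and 3096 in the DMSO libraries and 5109, 4709.8 and 4901 in the P3FI-90 libraries (log2 fold change 0.75, SE 0.051, adjusted p = 6.31e-09). The lowest P3FI-90 library of either gene exceeded the highest DMSO library by a wide margin. Mrpl32 is cleaved by the inner membrane protease of AFG3L2 and paraplegin before it enters the large subunit. It had 1003, 914 and 872 in the DMSO libraries and 1332, 1398 and 1341 in the P3FI-90 libraries (log2 fold change 0.55, SE 0.066, adjusted p = 3.07e-06). Of the protease genes, Afg3l2 fell (log2 fold change -0.54) and Spg7, which encodes paraplegin, rose (0.43). Mrps17 had 2724, 2724 and 2813 in the DMSO libraries and 3903, 3659 and 3651 in the P3FI-90 libraries (log2 fold change 0.44, SE 0.044, adjusted p = 4.67e-07). Mrps7 had 2714, 2639 and 2902 in the DMSO libraries and 3466, 3619 and 3438 in the P3FI-90 libraries (log2 fold change 0.35, SE 0.048, adjusted p = 1.11e-05). Both are small subunit proteins of bacterial type that bind the ribosomal RNA. Mrps11, also of the small subunit, had 760.0, 861 and 639 in the DMSO libraries and 895, 928 and 913 in the P3FI-90 libraries (log2 fold change 0.28, SE 0.093, adjusted p = 0.014). Its DMSO libraries were widely spread, and without the third of them its log2 fold change was 0.17 with an adjusted p of 0.0731.

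The 3 genes that descend from bacterial S18 rose together. Their products occupy different places, Mrps18a in the large subunit and Mrps18b and Mrps18c in the small subunit. Mrps18a had 1408, 1489.8 and 1487 in the DMSO libraries and 2430.0, 2568 and 2241 in the P3FI-90 libraries (log2 fold change 0.72, SE 0.058, adjusted p = 3.81e-08). Mrps18b had 2380.1, 2367 and 2479 in the DMSO libraries and 3499, 3515 and 3509.9 in the P3FI-90 libraries (log2 fold change 0.54, SE 0.043, adjusted p = 3.49e-08). Mrps18c had 1164, 1215 and 1297 in the DMSO libraries and 1470.0, 1321 and 1497 in the P3FI-90 libraries (log2 fold change 0.22, SE 0.066, adjusted p = 0.0067). No DMSO library reached the lowest P3FI-90 library in any of the 3, and their combined share of all counts was 1.67 times that in DMSO. The 3 were called higher under all 17 settings. For Mrps18b and Mrps18c, 30.9% and 17.6% of the 50-base windows also occur in other genes. The exons of Mrps18b overlap those of Gm16279 on the opposite strand over 30.5% of their bases. The exons of Mrps18c overlap those of Gm43511 on the same strand over 23.2%.

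By subunit, the large subunit had 33 of 51 members lower and 7 higher, with a median log2 fold change of -0.41. The small subunit had 15 of 29 lower and 5 higher, with a median of -0.12, which turned to 0.09 when libraries were scaled by total counts. Whether the subunits differ was not tested. Proteins of bacterial descent (46 genes) had 27 lower and 6 higher with a median of -0.38, and proteins of the mitochondrial lineage (34 genes) 21 lower and 6 higher with a median of -0.41. These classes place Mrps18a and Mrps18b, which rose, with the mitochondrial lineage. With both moved to bacterial descent, a grouping added after the data were seen, 27 of 48 were lower and 8 higher (median -0.34), against 21 of 32 lower and 4 higher (median -0.43). The bacterial-type small subunit proteins were the most evenly divided of the 4 classes, with 7 lower, 4 higher and 5 not called of 16. The bacterial-type large subunit proteins had 20 lower, 2 higher and 8 not called of 30. Large and small subunit proteins of the mitochondrial lineage had 13 lower of 21 and 8 lower of 13. After correction for length and GC content the large subunit class had 10 lower and 6 higher, with a median of 0.04. Under total counts the small subunit class had a median of 0.05. As shares of all counts, the large subunit held 0.267% to 0.276% in DMSO and 0.256% to 0.267% in P3FI-90, and the small subunit 0.147% to 0.150% and 0.156% to 0.158%.

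Members at the same functional site of the ribosome did not all pass the test in the same direction. In the stalk that receives the translation factors, Mrpl12, the repeated stalk protein, had 5629, 5626 and 5463 in the DMSO libraries and 2947, 2968 and 2514 in the P3FI-90 libraries (log2 fold change -0.99, SE 0.055, adjusted p = 7.46e-10). Mrpl11, at the stalk base, had 1997, 1834 and 2001 in the DMSO libraries and 1444, 1225 and 1308 in the P3FI-90 libraries (log2 fold change -0.55, SE 0.064, adjusted p = 2.13e-06). Mrpl10, which anchors Mrpl12, had 3388, 3319 and 3639 in the DMSO libraries and 3724, 3466 and 3296 in the P3FI-90 libraries (log2 fold change 0.02, SE 0.053, adjusted p = 0.744). The groups were fully apart for Mrpl12 and Mrpl11 and overlapped for Mrpl10. Around the exit of the peptide tunnel, 4 of 6 members fell, 1 rose and 1 was not called. Mrpl45, which ties the ribosome to the inner membrane, rose (3236, 3095 and 3090.4 in the DMSO libraries and 3629.6, 3748 and 3576 in the P3FI-90 libraries, log2 fold change 0.22, SE 0.042, adjusted p = 0.000303). Its neighbour Mrpl44 fell (1059, 921 and 919.6 in the DMSO libraries and 707, 699.5 and 722 in the P3FI-90 libraries, log2 fold change -0.45, SE 0.075, adjusted p = 8.3e-05). Mrpl24 (-0.89), Mrpl23 (-0.56) and Mrpl22 (-0.17, adjusted p = 0.04) fell, and Mrpl47 had -0.08. Of the windows of Mrpl23, 66.7% also occur in the pseudogene Mrpl23-ps1, and its value was -0.17 (adjusted p = 0.0427) after correction for length and GC content. The call on Mrpl22 is fragile. Its groups overlapped, it was lost on leaving out either of the first 2 DMSO libraries or the first or the third P3FI-90 library (-0.18 to -0.10), 33.4% of its windows also occur in other genes, and it turned to 0.19 after correction for length and GC content. Of the 7 members listed for the central protuberance, a list that may not be complete, 4 fell, among them Mrpl18 (-0.71) and Mrpl46 (-0.52). Mrpl38 rose (0.23), and Mrps30, a large subunit protein in spite of its name, had 0.19 (adjusted p = 0.0553). Mrps30 was called higher without the first DMSO library (0.29) and without the third P3FI-90 library (0.23).

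In the small subunit, Dap3, a GTP-binding protein of the head, fell in every P3FI-90 library. It had 5024, 5044 and 4789 in the DMSO libraries and 3383, 3305 and 3458 in the P3FI-90 libraries (log2 fold change -0.55, SE 0.039, adjusted p = 9.41e-09). Ptcd3, a pentatricopeptide repeat protein, fell little. It had 4462, 4819.8 and 4504 in the DMSO libraries and 4154, 4186 and 3971 in the P3FI-90 libraries (log2 fold change -0.16, SE 0.041, adjusted p = 0.00238), and its log2 fold change was 0.05 under scaling by total counts. Mrps12, which lines the decoding centre, had 516, 419 and 516 in the DMSO libraries and 492, 496 and 434 in the P3FI-90 libraries (log2 fold change -0.03, SE 0.11, adjusted p = 0.796), with overlapping groups. After correction for length and GC content Mrps12 was called higher (0.37, adjusted p = 0.00636). Mrps26 passed the threshold narrowly at -0.11 (adjusted p = 0.0464) and was called higher, at 0.11, under total counts. It kept its call only on the omission of the second DMSO library among the 6 single libraries left out. Mrps36, the gene of the dehydrogenase complex, fell (764, 818 and 808 in the DMSO libraries and 624, 614 and 563 in the P3FI-90 libraries, log2 fold change -0.41, SE 0.077, adjusted p = 0.000232), but 36.2% of its windows are shared, the most with Mrps36-ps1, and the call was lost at -0.07 after correction for length and GC content.

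The 20 members that were not called included some of the most tightly measured. Mrpl28, a bacterial-type protein of the large subunit, had 3736, 3608 and 3774 in the DMSO libraries and 3931, 3599 and 3774 in the P3FI-90 libraries, a log2 fold change of 0.02 with an SE of 0.044. Mrps5, at the mRNA entrance of the small subunit, had 3351, 3344 and 3347 in the DMSO libraries and 3312, 3601 and 3326 in the P3FI-90 libraries (0.03, SE 0.045). The others near 0 were Mrpl2 (0.02), a core protein close to the peptidyl transferase centre, Mrpl4 (0.04), Mrpl43 (0.05), Mrpl27 (-0.02), Mrps22 (-0.06) and Mrps31 (-0.0035). A call at this size depends on the setting, as Mrpl2, Mrpl4, Mrpl10, Mrpl27, Mrpl28, Mrpl43, Mrps5, Mrps22 and Mrps31 were all called higher under total counts. After correction for length and GC content, Mrpl2 (0.37), Mrpl4 (0.36), Mrpl10 (0.17), Mrpl27 (0.35), Mrpl28 (0.38) and Mrpl43 (0.23) were called higher. Mrps5 (-0.13) was then called lower, and Mrps22 and Mrps31 were not called. Mrps14 (0.10) and Mrpl21 (0.10) were higher in every P3FI-90 library than in any DMSO library but missed the threshold. Under total counts both were called higher (0.31 and 0.32), and Mrps14 also with DESeq2 size factors (0.11, adjusted p = 0.0444). After correction for length and GC content, Mrpl21 was called higher (0.36) and Mrps14 was not called (-0.01). Mrps34 was the least precise member. Its DMSO libraries had 1053, 795 and 1579.9 normalized counts, a coefficient of variation of 35.0%, and its P3FI-90 libraries had 1181, 1023 and 1129. The exons of Mrps34 overlap those of Mapk8ip3 and Nme3 over 77.8% of their bases. Without the third DMSO library its log2 fold change was 0.26 (adjusted p = 0.0476), against -0.05 with all 6.

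Transcript levels of the proteins were unequal although the ribosome holds most of them in 1 copy. Levels were taken as normalized counts per kilobase of the longest annotated protein-coding transcript. The DMSO level ranged from 174 for Mrpl48 to 6008 for Mrpl13, a span of 34.5-fold, with a median of 1263. Without division by length, the DMSO means of the normalized counts spanned 15.2-fold. Counts are per gene, and which transcript the cells used was not tested. After Mrpl13, a core protein of the large subunit, came Mrpl42 (4470), Mrpl33 (4436), Mrpl12 (4234) and Mrpl28 (3470). Their differences were -0.54 for Mrpl13, -1.08 for Mrpl42, -0.39 for Mrpl33, -0.99 for Mrpl12 and 0.02 for Mrpl28 on the log2 scale, of which the first 4 were called lower and the last was not called. Mrpl13 had 7565, 7226 and 7250.3 in the DMSO libraries and 5253, 5145 and 4799 in the P3FI-90 libraries. Mrpl33 had 2046, 2116 and 2198 in the DMSO libraries and 1685, 1572 and 1612 in the P3FI-90 libraries, and 30.3% of its windows are shared with other genes. Its call was lost and its sign turned after correction for length and GC content (0.11, adjusted p = 0.0605). In P3FI-90 the span between the lowest and highest member was 52.3-fold. Across the 81 members the log2 fold change had a Spearman correlation of -0.019 with the DMSO level per kilobase, 0.14 with transcript length and -0.019 with GC content. Over 12263 genes tested with a length the same values were -0.36, 0.24 and -0.14. These are descriptions across genes measured in the same 6 libraries. The members were shorter than most genes, with a median of 1339 bases against 3113.

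Many members start beside another gene. By the annotation, 27 members formed 26 pairs with a protein-coding gene that starts on the other strand within 1000 bases or overlaps the start by up to 500. Both genes were called in 15 of the 25 pairs with a partner tested, with the same direction in 7 (46.7%) and opposite directions in 8. Over all protein-coding genes of the table, 522 of 849 such pairs had both genes called, 57.1% of them in the same direction. The members' balance turned with the setting, to 8 pairs in the same direction and 6 in opposite directions under total counts and to 10 and 6 after correction for length and GC content. The start of Mrpl49 lies 59 bases from that of Fau, which encodes a cytosolic ribosomal protein fused to a ubiquitin-like protein, and their log2 fold changes were 0.93 against -0.56. After correction for length and GC content, Fau had -0.05 while Mrpl49 had 1.02. Mrpl32 starts 75 bases from Psma2, a subunit of the proteasome core, and the values were 0.55 against -1.34. Mrpl44 and Wdfy1 differed as well (-0.45 against 1.11), as did Mrpl13 and Mtbp (-0.54 against 0.62) and Mrpl41 and Pnpla7 (-0.76 against 1.04). Mrpl46 and Mrps11 are both members, their starts overlap by 412 bases, and they moved apart at -0.52 against 0.28. Mrps18c and Helq, a DNA helicase, rose together (0.22 against 1.77), and so did Mrps18b and Ppp1r10 (0.54 against 1.00) and Mrps7 and Gga3 (0.35 against 0.79). Mrpl36 and Ndufs6, a subunit of complex I, both had lower values (-1.31 against -0.43), but Ndufs6 lost its call after that correction (-0.10, adjusted p = 0.255). Where the starts overlap, reads of the pair cannot be told apart without strand.

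**Figure D4:**
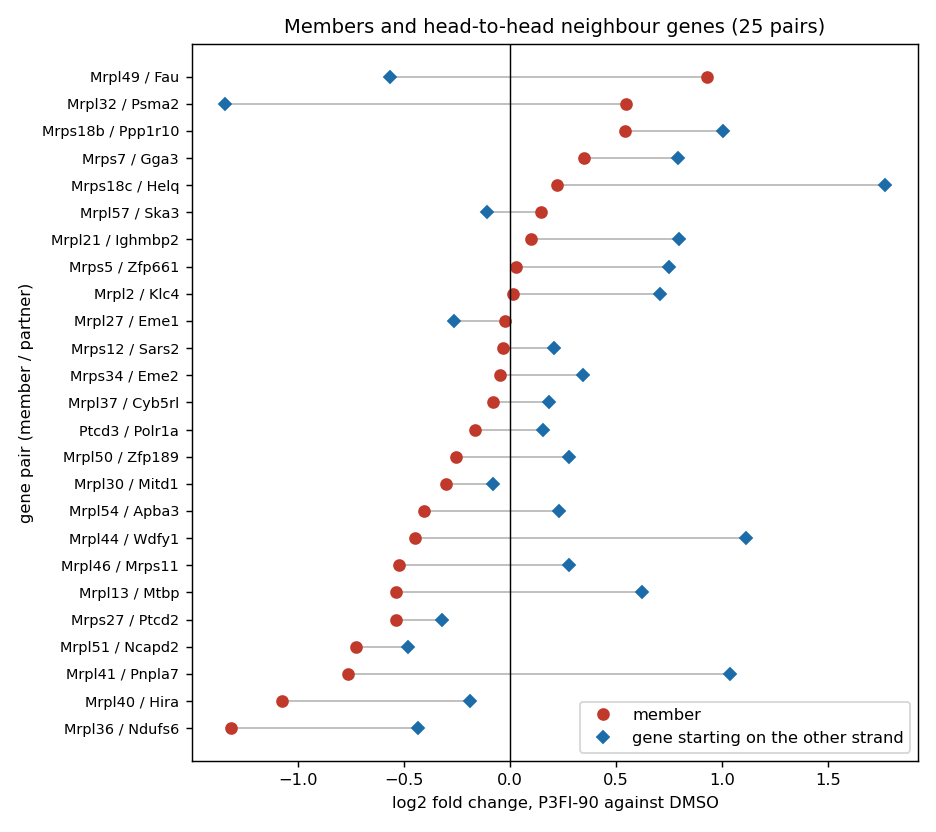
Log2 fold change (x axis, P3FI-90 against DMSO) of members (circles) and of the tested genes that start beside them on the other strand (diamonds) in 25 pairs, each joined by a line. Lines that cross 0 join genes with opposite signs, and the longest is that of Mrpl32 and Psma2, from 0.55 to -1.34.

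The 4 motifs were also counted over the family. RefSeq windows were matched for 71 members, with 77 windows in all, and 59.7% of these held at least 1 of the motifs, against 18.9% of all promoter windows of that length and 33.6% of the windows of genes tested. The NRF1 motif was in 16.9% of member windows (9.83% of the windows of genes tested and 4.60% of all windows), the ETS motif in 33.8% (17.5% and 8.86%), the YY1 motif in 10.4% (2.30% and 0.986%) and the E-box in 10.4% (9.74% and 7.15%), so the E-box share was close to that of the genes tested. By direction, the NRF1 motif was in 9 of 46 windows of members that fell, 4 of 11 windows of members that rose and 0 of 20 windows of members not called. The ETS motif was in 16, 4 and 6 of these windows, the YY1 motif in 2, 2 and 4, and the E-box in 3, 1 and 4. Windows are not separate genes, as the 46, 11 and 20 windows come from 42, 11 and 18 genes. The uncalled windows with the E-box come only from Mrpl2, whose several windows overlap each other, and from Mrpl37. A match is a description of the letters, and its absence says nothing about a factor.

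Genes of factors known to act through such motifs were themselves altered in both directions. Of 11 tested regulators, 5 were lower and 5 higher, beside 39.4% and 39.9% of all genes tested. Nrf1, nuclear respiratory factor 1, fell (log2 fold change -0.78, adjusted p = 9.82e-08). Gabpa, the DNA-binding subunit of the ETS factor GABP, fell (-0.42), while its partner subunits Gabpb1 (0.39) and Gabpb2 (0.85) rose. Gabpb2 had 0.41 after correction for length and GC content. Myc fell (-0.45). Yy1 had 0.29, a call that was lost after the same correction (0.05, adjusted p = 0.185). Ppargc1a, a coactivator of mitochondrial biogenesis, reached at most 4.68 normalized counts.

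The rest of the mitochondrial translation pathway was mixed. Over all genes tested, 39.4% were called lower and 39.9% higher, so an even split is near that background. Translation factors had 50% lower and 50% higher, and assembly factors 44% and 36%. Genes for the upkeep and expression of mitochondrial DNA had 39.3% and 39.3%, and tRNA synthetase and amidotransferase genes 60% and 5%. Gadd45gip1 (-0.96) and Aurkaip1 (-0.85), which encode further proteins of the 2 subunits outside the naming pattern, both fell. Of 12 translation factors, 6 fell and 6 rose. The elongation factor genes Tufm (-0.69) and Tsfm (-0.75) fell with the release factor gene Mtrf1 (-0.76), while Mtrf1l (0.56), Mtrfr (0.70) and Gfm2 (0.48), which act in termination, rescue and recycling, rose. Of 25 assembly factors 11 fell and 9 rose, from -0.72 for the GTPase gene Mtg1 to 0.90 for the RNA methyltransferase gene Mrm1. Lonp1, a matrix protease, rose (0.81). Of 20 mitochondrial tRNA synthetase and amidotransferase genes 12 fell and 1 rose, with a median of -0.45, and those that fell included Pars2 (-1.29, with 35.1 to 246 normalized counts in the P3FI-90 libraries) and Aars2 (-1.19). Of 28 genes for the upkeep and expression of mitochondrial DNA 11 fell and 11 rose, and 2 subunits of the same RNase P moved apart, Hsd17b10 (-1.41) and Trmt10c (1.26). Among 9 stress genes of the organelle and of the integrated stress response, Hspe1 (-1.41) and Hspd1 (-1.41), the matrix chaperonin, fell, and 6 rose, led by Ddit3 (4.18) and Atf5 (2.60).

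The 13 mRNAs encoded in mitochondrial DNA, the products that these ribosomes translate, all fell, from -1.43 for mt-Nd3 to -0.21 for mt-Nd2, with a median of -0.84. Their share of all counts was 3.53% to 3.75% in DMSO and 2.77% to 2.85% in P3FI-90. Under scaling by total counts 11 of the 13 were called lower and 0 higher. After correction for length and GC content 12 were called lower and 1 higher, with a median of -0.53. The mitochondrial ribosomal RNAs were not analysed here. Compared with the families most like the members, 81 of 83 cytosolic ribosomal protein genes fell and 0 rose, with a median of -0.75, and 60 of 76 nuclear OXPHOS subunit genes fell and 4 rose, with a median of -0.43. On the TMM scale, 5 members rose by at least 0.5 (Mrpl49, Mrpl9, Mrps18a, Mrpl32 and Mrps18b). The largest log2 fold change on that scale was -0.12 among the cytosolic ribosomal protein genes and 0.44 among the nuclear OXPHOS genes. Rises in both lists depended on the setting. Correction for length and GC content left the OXPHOS list with 20 rises and 38 falls. Its median was then -0.15, the same as that of the members. The cytosolic list then had 5 rises and 65 falls (median -0.44). Total counts gave 14 rises and 46 falls for OXPHOS (median -0.22), and 1 and 75 for the cytosolic list (-0.53). The lists share all 6 libraries and were compared by these counts only.

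**Figure D5:**
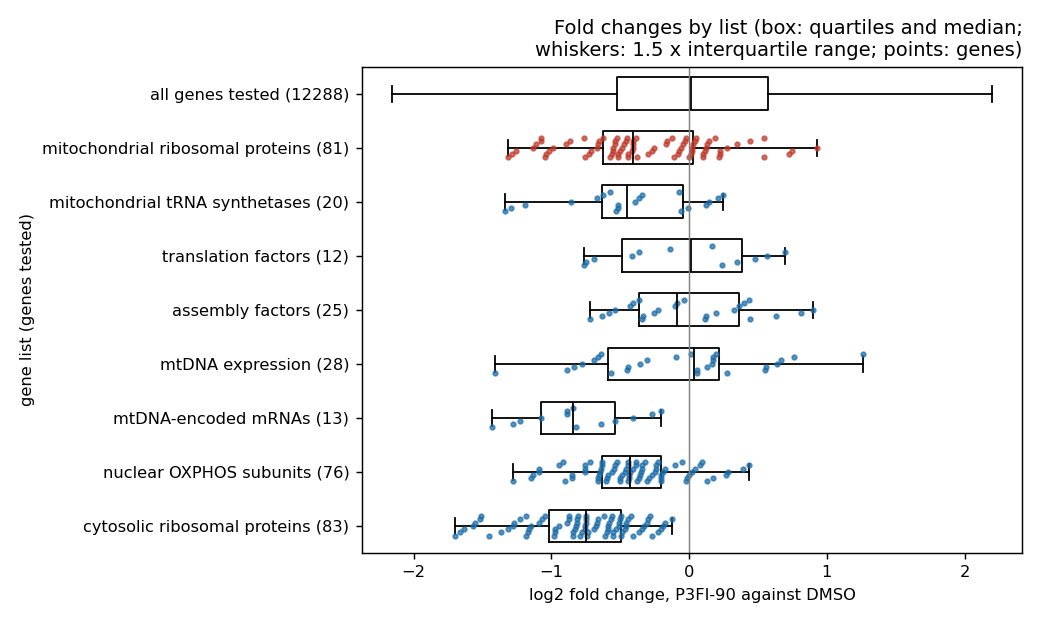
Log2 fold change (x axis, P3FI-90 against DMSO) of all genes tested and of each gene list (y axis, number of genes in brackets), with boxes at the quartiles, a line at the median and a point per gene in the lists. The median is -0.41 for the 81 members, -0.75 for cytosolic ribosomal proteins and -0.84 for mRNAs encoded in mitochondrial DNA, and the members reach furthest above 0 of the 2 ribosomal protein lists.

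Shared sequence limits part of the family. For 29 members, more than 10% of the exon bases overlap another gene or more than 10% of the 50-base windows of their transcripts occur in another gene, the extreme being Mrpl53, whose windows all occur in Gm42688. Among the 52 members below both limits, 31 were lower, 9 higher and 12 not called, with a median log2 fold change of -0.34.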

How the data were processed

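RNA of 4T1 cells given DMSO or P3FI-90 was sequenced in 3 libraries per group. The authors deposited 1 table of read counts per gene, as whole numbers without normalization. The submitters' processing notes name CASAVA, HISAT2, StringTie and GRCm39 without versions. The strand setting of the counting is not given in the sources used here. Of 22401 rows, 296 without a gene identifier were left out (0.483% to 0.556% of a library's counts).

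Counts were filtered with filterByExpr, normalized by TMM and tested with the quasi-likelihood test of edgeR 4.0.16 in R 4.3.3, after a check on simulated data. Alternatives were total counts, upper quartile and DESeq2 size factors, a filter of 10 counts per library or none at all, the tests of DESeq2 1.42.0 and of limma 3.58.1 (voom, or on log2(CPM + 1)), removal of a trend on length and GC content by splines with 4 degrees of freedom, a block for the replicate number, and the omission of single libraries. Lengths, overlaps and gene pairs came from GENCODE M21 and promoters from RefSeq, both on GRCm38 and not on the build of the table, so gene coordinates are given only for the printed promoter windows, on GRCm38.p6.

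The members, the lists and the rule for named genes were chosen with earlier results of these data known. The rule names the 8 largest rises and 8 largest falls without overlap between groups, the 5 highest levels per kilobase, the 12 uncalled members nearest 0, 15 fixed members and the 3 largest called changes of each pathway list. A pathway gene and a marker gene are not reported here. Mrpl18, Mrpl21, Mrpl22, Mrpl23, Mrpl24, Mrpl37, Mrpl38, Mrpl41, Mrpl46, Mrpl53, Mrpl55, Mrpl57, Mrps14, Mrps26, the gene pairs and further pathway genes were chosen after their values were seen. So were the members listed only for a change of sign.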

Additional observations from a re-analysis of the deposited data

How the results depend on the processing

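Lower calls outnumbered higher calls under every setting. Scaling by total counts gave 29 higher members and a median log2 fold change of -0.19, and removing the length and GC trend gave 23 higher members and a median of -0.15. No other setting moved a count by over 1.5 times. Leaving out single libraries gave 11 to 14 higher members, 47 to 49 lower members and a median of -0.42 to -0.37. The replicate numbers were shared between the groups, but deviations of equally numbered libraries correlated by only -0.021, 0.015 and 0.0049, so they were not taken as pairs. With the replicate block, 12 members were higher and 48 lower, and only Mrps26 lost its call. For 51 of the members named in the text, 816 comparisons with the main value were made. Of these, 729 kept direction and side of the threshold, 26 lost the call and 17 gained one. The other 44 changed sign, 39 of them at a value within 0.2 of 0. The cause of the changes was not tested. With upper quartile scaling, the log2 fold change had the opposite sign for Mrpl10 (-0.019), Mrpl2 (-0.021), Mrpl28 (-0.015), Mrps5 (-0.010). With total counts, 11 of the 81 members had the opposite sign, 7 lost their call and 16 gained one. The sign changed for Mrpl22 (0.047), Mrpl27 (0.19), Mrpl37 (0.14), Mrpl47 (0.14), Mrps10 (0.091), Mrps12 (0.18), Mrps22 (0.15), Mrps26 (0.11), Mrps31 (0.21), Mrps34 (0.17) and Ptcd3 (0.052). After correction for length and GC content, 17 of the 81 members had the opposite sign, 9 lost their call and 12 gained one. The sign changed for Mrpl14 (0.082), Mrpl22 (0.19), Mrpl27 (0.35), Mrpl33 (0.11), Mrpl35 (-0.014), Mrpl37 (0.15), Mrpl52 (0.16), Mrpl53 (0.038), Mrpl54 (0.19), Mrps10 (0.11), Mrps12 (0.37), Mrps14 (-0.011), Mrps21 (0.00091), Mrps22 (0.072), Mrps31 (0.048), Mrps34 (0.38) and Mrps5 (-0.13). With DESeq2 size factors, the log2 fold change had the opposite sign for Mrps31 (0.0063). With at least 10 counts in every library, the log2 fold change had the opposite sign for Mrps31 (0.015). With DESeq2, the log2 fold change had the opposite sign for Mrps31 (0.0063). With limma-voom, the log2 fold change had the opposite sign for Mrps31 (0.00052). With limma on log2(CPM + 1), the log2 fold change had the opposite sign for Mrps34 (0.012). With the replicate block, the log2 fold change had the opposite sign for Mrps34 (0.0050). With single libraries left out, values changed sign for the members near 0, ranging from -0.030 to 0.055 for Mrpl10, -0.025 to 0.054 for Mrpl2, -0.093 to 0.023 for Mrpl27, -0.0091 to 0.053 for Mrpl28, -0.13 to 0.024 for Mrps12, -0.070 to 0.031 for Mrps31, -0.25 to 0.26 for Mrps34, -0.015 to 0.048 for Mrps5. Without the third DMSO library, Mrps34 was called higher, at 0.26 (adjusted p = 0.0476), and Mrps11 lost its call. Mrps30 was called higher at 0.29 without the first DMSO library and at 0.23 without the third P3FI-90 library. Mrpl22 lost its call in 4 of the 6 omissions, Mrpl57 in 4 and Mrps26 in 5. All members had at least 281 counts per library, and the effect of depth was not tested. With 3 libraries per group and a median coefficient of variation of 4.70% in DMSO and 5.19% in P3FI-90, differences near 0 are uncertain. Overlapping and duplicated genes were counted by the authors in a way not given in the sources used here.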
